A study of Mus musculus with 8 samples.

Results

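Proteasome subunit genes were taken as the genes whose symbol starts with Psma, Psmb, Psmc, Psmd, Psme or Psmf followed by a digit, without the immunoproteasome genes Psmb8, Psmb9 and Psmb10 and without pseudogenes. A gene was represented by its probe set with a single symbol and the highest mean, and 41 of the 29915 genes on the arrays were members. Each member had 1 such probe set. Of the 41, 39 encode subunits, assembly chaperones or regulators of the proteasome. The other 2, Psmc3ip and Psme3ip1, match by their letters: they are named for proteins that bind a subunit or an activator. Psmb5, Psme2 and Psme2b are not analysed here, because their 3 probe sets carry several symbols.

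RNA came from long-term haematopoietic stem cells (LT-HSC) of mouse bone marrow, sorted by a CD150+ CD48- Flk2- gate within Lin- cKit+ Sca+ cells, and was hybridised to 8 Affymetrix arrays. The 4 groups held 2 arrays each. They were CD169DTR/+ mice given total body irradiation of 2 Gy (CD169-DTR 2 Gy), sham-irradiated CD169DTR/+ mice (CD169-DTR non-irradiated), wild-type mice given 2 Gy (WT 2 Gy) and sham-irradiated wild-type mice (WT non-irradiated). All mice of all groups, wild-type included, received diphtheria toxin 72 h before the irradiation or sham irradiation, and the stem cells were sorted on day 5 after it. CD169DTR/+ mice carry 1 allele in which the CD169 gene (Siglec1) drives the receptor for diphtheria toxin, so that the toxin removes CD169+ macrophages. The sources used here give neither the age of the mice nor how many were combined for an array. The pair of arrays of a group came from distinct experiments.

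The proteasome is the barrel-shaped protease that degrades most short-lived and misfolded proteins of a cell after they have been tagged with ubiquitin. Its 20S core is a stack of rings of alpha subunits, which form the gate, and beta subunits, of which a few hold the cutting sites. The 19S regulatory particle sits on the ends of the core: its ring of ATPases unfolds the substrate, and its non-ATPase subunits bind ubiquitin, remove it and hold the particle together. In blood-forming tissue, stem cells are known to make protein slowly and to depend on a low load of misfolded protein. The transcription factor Nrf1 (gene Nfe2l1) raises many subunit genes together when proteasome activity is short.

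The sequences upstream of the members are shown for what they share, since the choice by name did not use them. RefSeq promoter windows (GRCm38.p6), from 250 bases before to 50 after a gene's start, were on hand for 34 of the 41 members. The windows missing were those of Psma8, Psmb1, Psmb2, Psmb7, Psmc3, Psmd3 and Psmd7, which are named only. A gene was counted when any of its windows held the motif, and the 27025 genes with a window had 32851 windows. On both strands, the ETS core CCGGAA was present in 20 of the 34 members, or 58.8% (95% exact binomial interval 40.7% to 75.4%), against 16.7% of 27025 genes with a window. The GC box GGGCGG was present in 21 of the 34, or 61.8% (43.6% to 77.8%), against 38.2% of genes. The CCAAT box was found in 15 of the 34, or 44.1% (27.2% to 62.1%), against 41.1% of genes, and the antioxidant response element core TGACNNNGC, to which Nrf1 and Nrf2 can bind, in 5 of the 34, or 14.7% (4.95% to 31.1%), against 13.99% of genes. A match is a run of letters and not a measured binding site. The intervals cover counting error only. With a window from 100 bases before the start the ETS core was in 52.9% of the 34 members against 11.8% of genes. On the forward strand alone it was in 35.3% against 9.33%. The GC box was in 44.1% (27.2% to 62.1%) of the 34 members against 31.5% of genes in the shorter window. On the forward strand alone it was in 38.2% (22.2% to 56.4%) against 25.6%. Both of these GC box intervals include the share of genes. For the CCAAT box the share depends on the strand searched. On the forward strand alone it was in 41.2% (24.6% to 59.3%) of the 34 members against 23.7% of genes, and in the shorter window in 35.3% against 26.3%.

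The 250 bases before the start of 3 members are printed 5′ to 3′ on the + strand, with matches to these 4 motifs on either strand in capitals. Psmb6, a catalytic beta subunit, is shown because its window holds the antioxidant response element core directly at the start. Psmc1, the ATPase with the largest difference between genotypes after 2 Gy, and Psmd2, a large scaffold subunit whose irradiation differences ran in opposite directions in the genotypes, are shown because both hold the ETS core. The stretches are chr11:70525107-70525356 for Psmb6, chr12:100109952-100110201 for Psmc1 and chr16:20651402-20651651 for Psmd2.
Psmb6: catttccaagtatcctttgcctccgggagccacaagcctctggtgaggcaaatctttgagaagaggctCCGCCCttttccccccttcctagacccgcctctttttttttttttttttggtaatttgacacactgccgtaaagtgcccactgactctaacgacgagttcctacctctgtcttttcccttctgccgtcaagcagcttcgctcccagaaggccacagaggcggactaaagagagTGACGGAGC
Psmc1: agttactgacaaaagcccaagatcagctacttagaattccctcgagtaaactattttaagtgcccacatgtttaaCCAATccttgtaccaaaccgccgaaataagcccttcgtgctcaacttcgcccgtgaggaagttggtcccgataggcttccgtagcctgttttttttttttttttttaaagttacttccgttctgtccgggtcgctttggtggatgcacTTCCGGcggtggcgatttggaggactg
Psmd2: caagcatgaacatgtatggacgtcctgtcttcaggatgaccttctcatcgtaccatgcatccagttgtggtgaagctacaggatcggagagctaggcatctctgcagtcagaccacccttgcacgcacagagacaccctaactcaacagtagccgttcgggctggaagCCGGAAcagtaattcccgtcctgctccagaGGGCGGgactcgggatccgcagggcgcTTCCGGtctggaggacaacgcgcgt
The Psmb6 stretch has 1 antioxidant response element core and 1 GC box and no ETS core. The Psmc1 stretch has 1 CCAAT box and 1 ETS core, and the Psmd2 stretch has 2 ETS cores and 1 GC box.

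The arrays of a group were alike, with a Pearson r over all probe sets between 0.990 and 0.994. WT 2 Gy replicate 1 and CD169-DTR 2 Gy replicate 2 stood apart from the other arrays on the first principal components. Cdkn1a, the p53-induced cell cycle inhibitor, checked the irradiation label: it had 13.24 and 13.23 log2 in CD169-DTR 2 Gy, 9.79 and 9.34 in CD169-DTR non-irradiated, 13.06 and 13.41 in WT 2 Gy, and 7.86 and 8.39 in WT non-irradiated cells. The groups did not overlap between 2 Gy and sham in either genotype. Siglec1, the gene of CD169, lay between 3.86 and 4.12 log2 on all 8 arrays, below the array medians of 4.76 to 4.93, so these arrays of sorted stem cells give no check of the depletion. Of 10 LT-HSC markers 8 were measured, with array means of 9.71 to 10.28 log2. Kit, which the sort requires, lay between 14.25 and 14.93 log2, and the monocyte and macrophage markers (8 of 8 measured) had array means of 4.75 to 5.12. Cd48, which the sort excludes, lay between 10.98 and 13.47 log2, above the 75th percentile (7.57 to 7.69) of every array. It had 13.47 and 13.00 log2 in CD169-DTR 2 Gy, 11.05 and 12.54 in CD169-DTR non-irradiated, 12.95 and 12.14 in WT 2 Gy, and 11.24 and 10.98 in WT non-irradiated cells. Cd48 was thus higher after 2 Gy than after sham in both genotypes. Flt3, which the sort also excludes (as Flk2), was lower after 2 Gy in both. The part of these 2 genes in the member values was not tested. The deposited table lists no value at 0. Values of different probe sets are not comparable as levels, so each gene is compared only with itself.

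**Figure D1:**
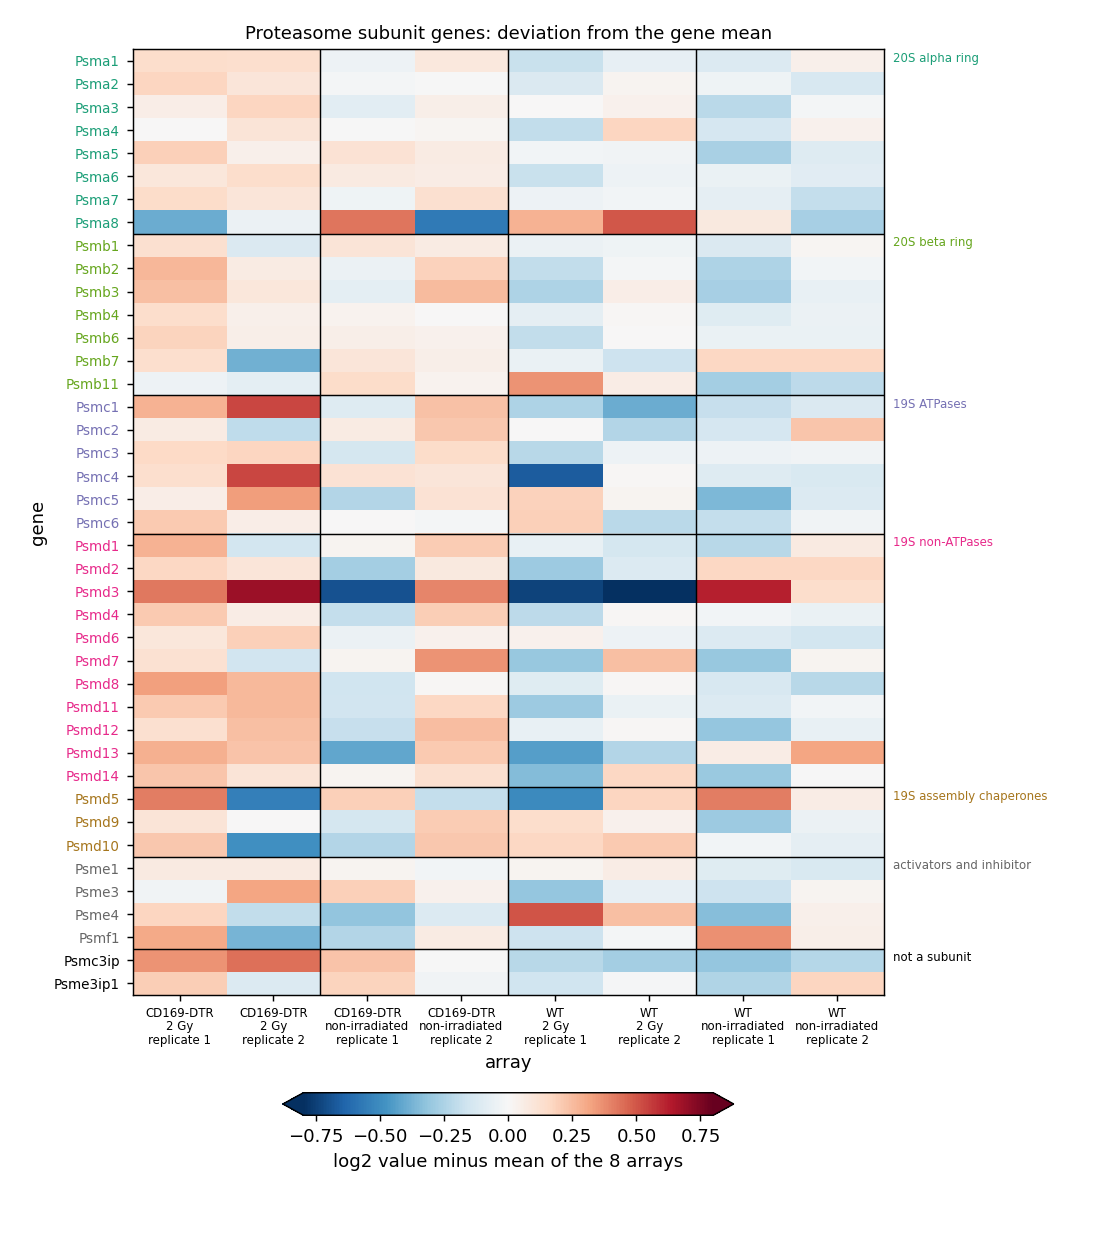
Heat map of the 41 proteasome genes (rows, grouped by role) on the 8 arrays (columns), coloured by the log2 value minus the mean of the gene over the arrays. Most rows of the 20S rings stay pale, while Psmd3 has the deepest colours, high in both CD169-DTR 2 Gy arrays and low in both WT 2 Gy arrays.

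The median range of a member over the 8 arrays, from its lowest to its highest array, was 0.51 log2, against 0.59 log2 over all tested probe sets. Of the 41 members 27, or 65.9%, stayed within a 1.5-fold range, as did 49.2% of all tested probe sets, and the median SD over the 8 arrays was 0.194 log2 for the members, against 0.199 log2 for all. Only Psmd3, Psmc4 and Psma8 spanned more than 2-fold, with ranges of 1.51, 1.20 and 1.06 log2. The least variable member was Psme1, a subunit of the PA28 activator, with a range of 0.19 log2. The median residual SD within groups was 0.162 log2 over the members, against 0.182 over all tested probe sets and 0.210 over the 7573 brightest probe sets by mean over the arrays, among which 37 of the 41 members lie. Psmb11, the beta subunit of the thymic cortex, lay between 3.11 and 3.74 log2, below the 25th percentile (3.85 to 4.04) of every array, and Psma8, the alpha subunit of the testis, lay between 6.67 and 7.73 log2.

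The first comparison asks how LT-HSC of macrophage-depleted mice differ from those of WT mice when both were given 2 Gy. After 2 Gy, 35 of the 41 members had a higher mean in CD169-DTR than in WT cells and 6 a lower one. All 17 subunits of the 19S regulatory particle were among the higher ones, with a median difference of 0.26 log2 (1.19-fold). With any 1 of the 4 irradiated arrays left out, 14 to 16 of the 17 were higher, and without both 2 Gy arrays that stand apart 16 were, with a median of 0.26 log2. The 13 broadly expressed subunits of the 20S core had a median of 0.16 log2 (1.11-fold), with 12 higher and 1 lower. No single member passed the test: 0 of 41 had a limma p adjusted over all 30294 probe sets under 0.05, as did 0% of all probe sets, and the smallest adjusted p of a member was 0.551. At an unadjusted p under 0.05 by limma, 7 members were higher and 0 lower, against 3.86% of all probe sets higher and 3.71% lower. Of the 7573 brightest probe sets, 632 were higher and 365 lower at that threshold.

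Set against all probe sets, of which 45.7% were higher in CD169-DTR than in WT cells after 2 Gy with a median of -0.02 log2, the members had a median of 0.16 log2. Among the 7573 brightest probe sets the share was 57.4% and the median 0.06 log2. The arrays of the genotypes did not overlap for 24 members that were higher in CD169-DTR 2 Gy cells and for 3 that were lower, against 16% and 18.9% of all probe sets. Of the 7573 brightest probe sets, 2062 were higher and 1171 lower without overlap. The 95% intervals of 19 members stayed within a 1.5-fold change either way, as did 48.7% of all probe sets. The size of the shift depends on the scaling: the members' median was 0.10 log2 after cyclic loess, with 31 higher, and 0.23 log2 after median centring, with 37 higher. In array data of sorted bulk cells, fewer cells with a transcript and less of it per cell cannot be told apart.

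The 19S ATPases are the motor of the regulatory particle. Psmc1, the ATPase whose tail helps to open the core's gate, had 11.72 and 11.98 log2 in CD169-DTR 2 Gy cells, against 11.20 and 11.05 log2 in WT 2 Gy cells. The groups did not overlap, and the difference was 0.73 ± 0.16 log2 (SE), or 1.65-fold (95% interval 1.26 to 2.17; limma adjusted p = 0.562). Psmc4, another ATPase of the ring, had 11.26 and 11.66 log2 in CD169-DTR 2 Gy cells, against 10.46 and 11.13 log2 in WT 2 Gy cells, so the groups did not overlap although WT 2 Gy replicate 1 was far below the rest. The Psmc4 difference of 0.67 log2 (limma adjusted p = 0.648) rests on that array: it was 0.33 log2 without it and 0.13 log2 without both 2 Gy arrays that stand apart. Averaged over irradiation, the Psmc4 difference was 0.44 log2 with all arrays, against 0.18 log2 without both 2 Gy arrays that stand apart. The other 4 ATPases had differences between 0.05 and 0.30 log2, the largest in Psmc3, with intervals that include 0.

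Among the non-ATPases, the lid subunit Psmd3 had the largest difference of any member. It had 10.69 and 10.95 log2 in CD169-DTR 2 Gy cells, against 9.53 and 9.44 log2 in WT 2 Gy cells. The groups lay more than 1 log2 apart at the means, with a difference of 1.34 ± 0.35 log2 (SE), or 2.52-fold (95% interval 1.41 to 4.53; limma adjusted p = 0.619). Leaving out either of the 2 CD169-DTR 2 Gy arrays gave 1.21 and 1.47 log2. A further 3 lid subunits had an unadjusted p under 0.05. Psmd13 had 9.76 and 9.70 log2 in CD169-DTR 2 Gy cells, against 9.03 and 9.24 log2 in WT 2 Gy cells, a difference of 0.60 log2. Psmd11, which carries the contact between lid and core, had 12.20 and 12.25 log2 in CD169-DTR 2 Gy cells, against 11.70 and 11.94 log2 in WT 2 Gy cells, a difference of 0.41 log2, or 0.26 log2 without both 2 Gy arrays that stand apart. Psmd8, a small lid subunit that joins late in assembly, had 13.90 and 13.83 log2 in CD169-DTR 2 Gy cells, against 13.47 and 13.58 log2 in WT 2 Gy cells, a difference of 0.34 log2. None of the 3 overlapped between the genotypes, and each had a limma adjusted p of 0.648.

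The subunits that read and remove ubiquitin had smaller differences. Psmd4, a ubiquitin receptor, had 10.36 and 10.21 log2 in CD169-DTR 2 Gy cells, against 9.94 and 10.16 log2 in WT 2 Gy cells, a difference of 0.24 log2 (95% interval -0.16 to 0.63). Psmd14, the deubiquitinase of the lid, had 10.74 and 10.62 log2 in CD169-DTR 2 Gy cells, against 10.17 and 10.68 log2 in WT 2 Gy cells, and these groups overlapped, with a difference of 0.26 log2 that was 0.06 log2 without both 2 Gy arrays that stand apart. The large scaffold subunits Psmd1 and Psmd2, to which ubiquitin receptors and shuttles dock, differed by 0.17 log2 (-0.28 to 0.61) and 0.34 log2 (-0.03 to 0.70). The Psmd1 difference was 0.42 log2 without both of these arrays and -0.05 log2 without CD169-DTR 2 Gy replicate 1.

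**Figure D2:**
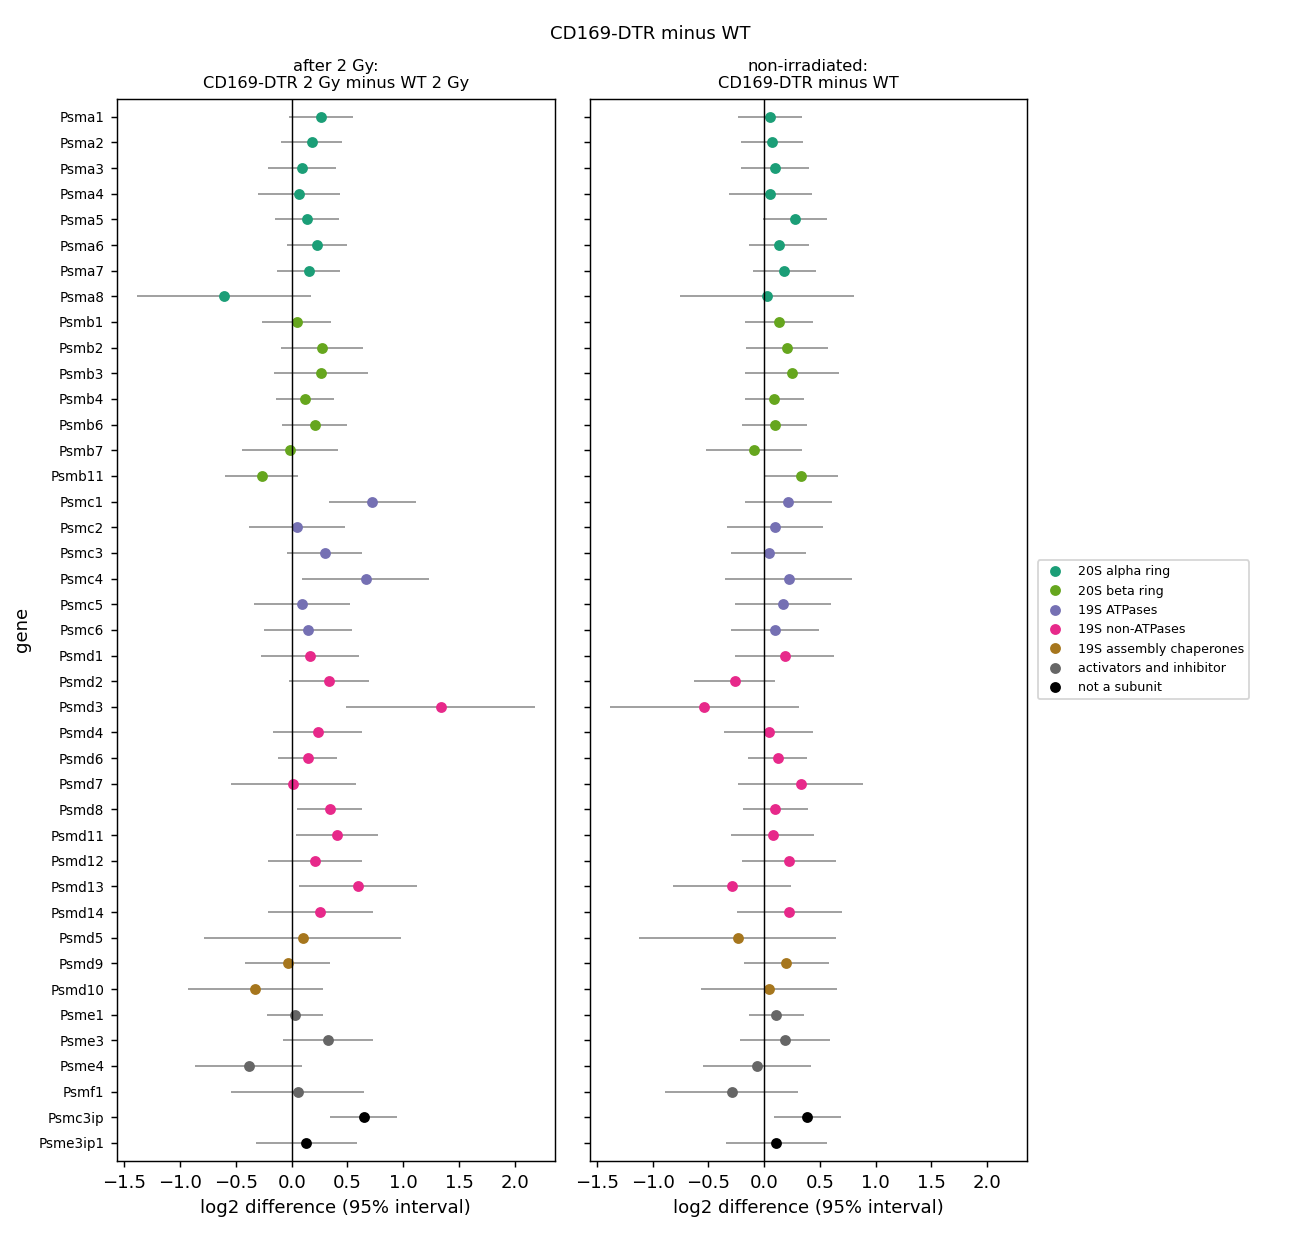
Log2 difference of each member between CD169-DTR and WT cells (points, coloured by role) with its 95% interval from the limma fit (lines), after 2 Gy on the left and in non-irradiated cells on the right. After 2 Gy all 17 subunits of the 19S particle lie right of 0, with Psmd3 farthest at 1.34, while without irradiation Psmd2, Psmd3 and Psmd13 lie left of 0.

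Of the catalytic subunits, Psmb6 had 14.52 and 14.39 log2 in CD169-DTR 2 Gy cells, against 14.15 and 14.35 log2 in WT 2 Gy cells, a difference of 0.21 log2 (95% interval -0.09 to 0.50). Psmb7 had 14.31 and 13.79 log2 in CD169-DTR 2 Gy cells, against 14.12 and 14.01 log2 in WT 2 Gy cells, and was the 1 core subunit with a mean below that of WT, by -0.02 log2 (-0.45 to 0.42). Its direction turns on single arrays: the difference was 0.30 log2 without both 2 Gy arrays that stand apart and -0.28 log2 without CD169-DTR 2 Gy replicate 1. The WT arrays of Psmb7 lay between the CD169-DTR arrays. The gate-forming alpha subunits Psma1 to Psma7 differed by 0.07 to 0.26 log2, with Psma1 at the top. Of the tissue-restricted subunits, Psma8 differed by -0.61 log2 (-1.39 to 0.18), an interval that includes 0, or by -0.89 log2 without both 2 Gy arrays that stand apart. Psmb11 lay below the 25th percentile of every array, so no direction is read from its values.

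Assembly chaperones and regulators showed no common direction after 2 Gy. Psmd10 (gankyrin), a chaperone of the ATPase ring, had 13.77 and 13.06 log2 in CD169-DTR 2 Gy cells, against 13.72 and 13.76 log2 in WT 2 Gy cells, and overlapped, with a difference of -0.33 log2 that was 0.01 log2 without both 2 Gy arrays that stand apart. The chaperones Psmd5 and Psmd9 differed by 0.10 and -0.04 log2. Psme4 (PA200), an activator linked to the degradation of histones, had 9.09 and 8.72 log2 in CD169-DTR 2 Gy cells, against 9.42 and 9.16 log2 in WT 2 Gy cells, a difference of -0.39 log2 (95% interval -0.87 to 0.10) in groups that did not overlap, and of -0.07 log2 without both 2 Gy arrays that stand apart. Psme1 differed by 0.03 log2, Psme3, the nuclear activator PA28 gamma, by 0.33 log2 (-0.07 to 0.73), and the inhibitor Psmf1 by 0.06 log2 (-0.54 to 0.65). Both values turn on single arrays: without both 2 Gy arrays that stand apart Psme3 differed by 0.04 log2 and Psmf1 by 0.32 log2, and without CD169-DTR 2 Gy replicate 1 by 0.50 and -0.29 log2.

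Marker lists were also read in the same contrast. The cell cycle markers (7 of 8 measured) had array means of 13.28 and 13.43 log2 in CD169-DTR 2 Gy cells, against 12.93 and 13.27 log2 in WT 2 Gy cells. The neutrophil and granulocyte-monocyte progenitor markers (10 of 10 measured) had 9.002 and 10.05 log2 in CD169-DTR 2 Gy cells, against 10.19 and 10.91 log2 in WT 2 Gy cells. The LT-HSC markers had 9.71 and 9.91 log2 in CD169-DTR 2 Gy cells, against 9.95 and 10.22 log2 in WT 2 Gy cells, with 7 of 8 lower. The monocyte and macrophage markers had 4.85 and 4.88 log2 in CD169-DTR 2 Gy cells, against 4.95 and 5.12 log2 in WT 2 Gy cells, with 7 of 8 lower. These means lie near the medians of the 2 Gy arrays, 4.80 to 4.93 log2, so no direction is read from this list. Its brightest marker, Cd68, was not lower and overlapped, with 8.42 and 7.57 log2 against 8.21 and 7.70 log2. These 4 lists did not overlap between the genotypes in their array means. The cell cycle list was higher and the neutrophil and LT-HSC lists were lower in CD169-DTR 2 Gy cells. For the cell cycle list the gap was small, from 13.281 log2 in CD169-DTR 2 Gy to 13.273 log2 in WT 2 Gy cells. Its marker Mki67 went the other way, with 14.93 and 14.86 log2 against 14.99 and 15.63 log2. Of all single probe sets, 16% were higher and 18.9% lower without overlap. The mast cell and basophil markers (5 of 5 measured) were all higher, with a median difference of 0.95 log2, and their array means of 8.56 and 9.25 log2 in CD169-DTR 2 Gy cells, against 7.53 and 8.58 log2 in WT 2 Gy cells, overlapped slightly. The part of these lists in the proteasome differences was not tested.

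Without irradiation, CD169-DTR cells again had higher means than WT cells for 34 of the 41 members and lower ones for 7, against 57% of all probe sets higher. The median of the members was 0.10 log2 (1.07-fold), against 0.03 log2 over all probe sets and 0.04 log2 over the 7573 brightest. No member passed the adjusted test (0 of 41, against 0% of all probe sets), and at an unadjusted p under 0.05 by limma 2 members were higher and 0 lower, against 2.49% and 1.89%. These 2 were Psmc3ip, which is no subunit, and Psmb11, which lay below the 25th percentile of every array. The arrays did not overlap for 16 members that were higher and 2 that were lower, against 19.1% and 11.9%. Of the 7573 brightest probe sets, 57.2% had a higher mean, and 1663 were higher and 1049 lower without overlap. The 95% intervals of 23 members stayed within 1.5-fold, as did 52.2% of all probe sets. After cyclic loess the median of the members was 0.05 log2, with 32 higher, and it was 0.16 log2 without CD169-DTR non-irradiated replicate 1 and 0.07 log2 without replicate 2. In the same comparison 10 of 10 neutrophil and granulocyte-monocyte progenitor markers were higher in CD169-DTR cells (median 0.97 log2), 5 of 5 mast cell and basophil markers were lower (median -0.63 log2), and 7 of 8 LT-HSC markers were lower (median -0.17 log2). The part of these lists in the member values was not tested.

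The core subunits had a median of 0.10 log2 with 12 of 13 higher. Psma5, an alpha subunit, had 16.57 and 16.52 log2 in CD169-DTR non-irradiated cells, against 16.19 and 16.35 log2 in WT non-irradiated cells, a difference of 0.28 log2 (95% interval -0.01 to 0.56). Psmb6 had 14.39 and 14.38 log2 in CD169-DTR non-irradiated cells, against 14.29 and 14.29 log2 in WT non-irradiated cells. In both genes the groups lay apart, by less than 1.5-fold. In the 19S particle 14 of 17 were higher and 3 lower: Psmd3 by -0.54 log2, Psmd13 by -0.29 log2 and Psmd2 by -0.27 log2. These values rest on 1 array, CD169-DTR non-irradiated replicate 1: without it the difference of Psmd3 was 0.01 log2, that of Psmd13 was 0.02 log2 and that of Psmd2 was -0.09 log2. Of the remaining subunits, Psmd1 differed by 0.19 log2, Psmd4 by 0.04 log2 and Psmd14 by 0.23 log2, all with intervals that include 0.

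Averaged over irradiated and non-irradiated cells, 35 of the 41 members were higher in CD169-DTR than in WT cells, against 51% of all probe sets, with a median of 0.14 log2 (1.10-fold). Among the 7573 brightest probe sets 58.9% were higher, with a median of 0.04 log2. All 17 subunits of the 19S particle were higher, with a median of 0.17 log2, and 12 of the 13 core subunits, with a median of 0.15 log2. No member passed the adjusted test (0%, as for all probe sets; smallest limma adjusted p 0.683), and 5 members had an unadjusted p under 0.05 with a higher and 0 with a lower value, against 3.75% and 2.58% of all probe sets. For 6 members all 4 CD169-DTR arrays lay above all 4 WT arrays, against 1.52% of all probe sets, and for 0 members below, against 1.09%. Of the 7573 brightest probe sets, 234 lay above and 90 below in this way. In the same average 8 of 8 LT-HSC markers were lower in CD169-DTR cells (median -0.24 log2). Of the 10 neutrophil and granulocyte-monocyte progenitor markers, 6 were higher and 4 lower (median 0.06 log2). The part of these lists in the averaged differences of the members was not tested.

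The 6 members comprise 3 core subunits, 2 ATPases and Psmc3ip. Psma5 averaged 16.56 log2 in CD169-DTR cells and 16.35 log2 in WT cells, a difference of 0.21 log2 (95% interval 0.00 to 0.41; limma adjusted p = 0.787). Psma6 differed by 0.18 log2 (-0.01 to 0.37) and Psmb6 by 0.15 log2 (-0.06 to 0.36). Psmc1 averaged 11.68 log2 in CD169-DTR cells and 11.21 log2 in WT cells, a difference of 0.47 log2, or 1.39-fold (95% interval 1.14 to 1.68; limma adjusted p = 0.704), but its lowest CD169-DTR array, at 11.34 log2, was only just above its highest WT array, at 11.33 log2. Psmc4 averaged 11.35 log2 in CD169-DTR cells and 10.90 log2 in WT cells. The intervals of 35 of the 41 members stayed within a 1.5-fold change in either direction, as did those of 74.2% of all probe sets, so for most members a larger change lies outside the interval.

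Psmc3ip had the smallest unadjusted p among the members for this genotype difference, and it is no subunit: its product, known as HOP2, acts with MND1 in strand exchange during homologous recombination. It had 8.56 and 8.64 log2 in CD169-DTR 2 Gy cells, 8.43 and 8.20 in CD169-DTR non-irradiated cells, 7.98 and 7.93 in WT 2 Gy cells, and 7.89 and 7.97 in WT non-irradiated cells. All 4 CD169-DTR arrays were above all 4 WT arrays. The difference averaged over irradiation was 0.52 ± 0.09 log2 (SE), or 1.43-fold (95% interval 1.23 to 1.66), with an unadjusted p of 0.000831 and a limma adjusted p of 0.683. It was 0.65 log2 after 2 Gy (limma adjusted p = 0.551) and 0.39 log2 without irradiation (limma adjusted p = 0.999). The other name that is no subunit, Psme3ip1, differed by 0.12 log2 (-0.20 to 0.44). Without these 2 names the median of the members after 2 Gy stayed at 0.16 log2.

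**Figure D3:**
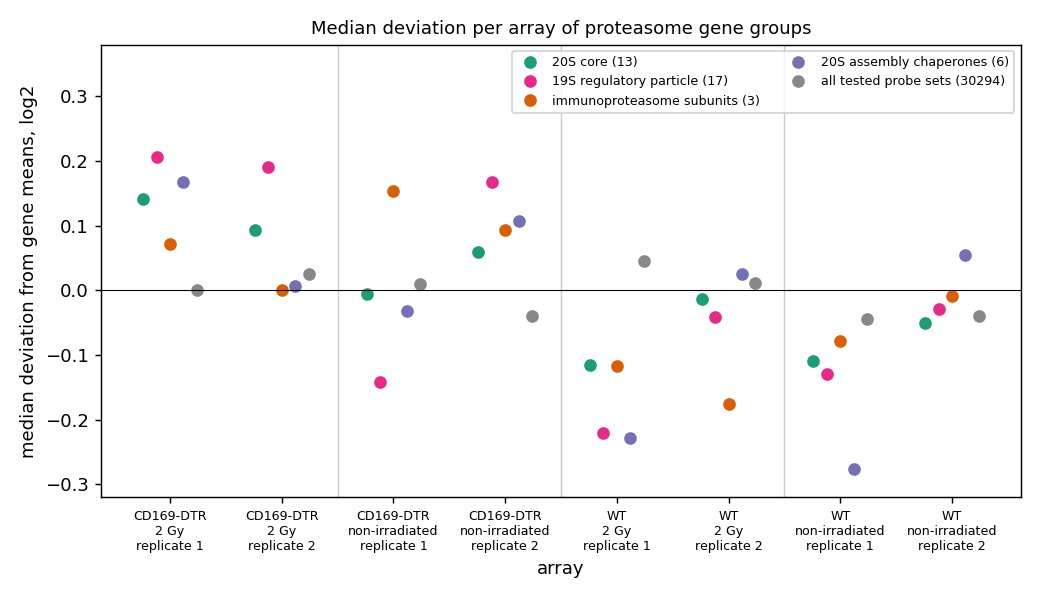
Median deviation from the gene means (log2) on each array for the 20S core, the 19S particle, the immunoproteasome subunits, the 20S assembly chaperones and all tested probe sets. Both CD169-DTR 2 Gy arrays have the core and the 19S particle above 0, at 0.09 to 0.21, and all 4 WT arrays have them below 0.

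On single arrays, the median deviation of the 41 members from their gene means was 0.17 and 0.09 log2 in CD169-DTR 2 Gy cells, -0.02 and 0.07 in CD169-DTR non-irradiated cells, -0.16 and -0.01 in WT 2 Gy cells, and -0.12 and -0.03 in WT non-irradiated cells. The CD169-DTR 2 Gy arrays were the highest of the 8. Over the 820 pairs of members, the median Pearson r across the 8 arrays was 0.34, and 76.8% of the pairs were above 0. These arrays share their scaling and their groups, so the correlations are a description only. The members most like the median of the others were Psmb2 (r = 0.951), Psmb3 (0.933) and Psma1 (0.906), and the least alike was Psma8 (r = -0.580).

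Irradiation with 2 Gy was compared with sham irradiation within each genotype. In CD169-DTR cells 31 of the 41 members were higher after 2 Gy and 10 lower, against 56.6% of all probe sets higher, with a median of 0.08 log2 (1.06-fold). In WT cells 23 were higher and 18 lower, against 64.2% of all probe sets higher, with a median of 0.03 log2 (1.02-fold). Among the 7573 brightest probe sets, 50.5% were higher in CD169-DTR cells (median 0.005 log2) and 47.5% in WT cells (median -0.015 log2). No member passed the adjusted test in either genotype (0% of all probe sets in CD169-DTR cells and 0.0099% in WT cells). At an unadjusted p under 0.05 by limma, 1 member was higher and 0 lower in CD169-DTR cells, against 3.24% and 3.53%, and 2 were higher and 2 lower in WT cells, against 4.6% and 3.21%. The 2 that were higher in WT cells were Psme4 and Psmb11, of which Psmb11 lay below the 25th percentile of every array. The direction in WT cells depends on the scaling: after median centring the median of the members was -0.09 log2 with 12 of 41 higher, and after cyclic loess it was 0.03 log2 with 22 higher. It also depends on single arrays: it was 0.09 log2 without WT 2 Gy replicate 1, -0.06 log2 without WT 2 Gy replicate 2 and -0.05 log2 without WT non-irradiated replicate 1. In CD169-DTR cells it was 0.16 log2 without CD169-DTR non-irradiated replicate 2. Marker lists moved with irradiation too: 5 of 5 mast cell and basophil markers were higher after 2 Gy in CD169-DTR cells (median 1.17 log2), and 10 of 10 neutrophil and granulocyte-monocyte progenitor markers were higher after 2 Gy in WT cells (median 1.91 log2), 8 of them at an unadjusted p under 0.05 by limma. In CD169-DTR cells 4 of these 10 were higher and 6 lower (median -0.165 log2). The LT-HSC markers were lower for 6 of 8 in CD169-DTR (median -0.42 log2) and 5 of 8 in WT cells (median -0.21 log2). Of the 5 erythroid markers measured, 5 were lower in CD169-DTR (median -0.9 log2) and 3 in WT cells (median -0.83 log2). The mast cell list averaged 7.53 and 8.58 log2 in WT 2 Gy arrays, against 8.51 and 8.95 log2 in WT non-irradiated arrays. The part of all these lists in the member values was not tested.

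The arrays of 17 members lay wholly above and of 1 wholly below their sham arrays in CD169-DTR cells, against 17.8% and 13.4% of all probe sets. In WT cells they did so for 12 and 6 members, against 31.4% and 13.2%. The 95% intervals of 24 members in CD169-DTR cells and of 26 in WT cells stayed within 1.5-fold, as did 50.2% and 46.8% of all probe sets. Psmd8 was the member with the smallest p in CD169-DTR cells. It had 13.90 and 13.83 log2 after 2 Gy, against 13.41 and 13.58 log2 after sham, a difference of 0.37 log2, or 1.29-fold (95% interval 1.06 to 1.58; limma adjusted p = 0.628). In WT cells Psmd8 had 13.47 and 13.58 log2 after 2 Gy, against 13.44 and 13.35 log2 after sham, and the difference of 0.13 log2 had an interval of -0.16 to 0.42. The average over genotypes was 0.25 log2 (limma adjusted p = 0.490).

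In WT cells the 3 members with the smallest p among those that were lower after 2 Gy were lid and scaffold subunits of the 19S particle. Psmd3 had 9.53 and 9.44 log2 in WT 2 Gy cells, against 10.89 and 10.41 log2 in WT non-irradiated cells. The difference was -1.17 ± 0.35 log2 (SE), or a ratio of 0.446 (95% interval 0.249 to 0.8003; limma adjusted p = 0.553), with no overlap. Psmd2 had 12.12 and 12.30 log2 in WT 2 Gy cells, against 12.58 and 12.58 log2 in WT non-irradiated cells, a difference of -0.37 log2 (-0.73 to -0.01). Psmd13 had 9.03 and 9.24 log2 in WT 2 Gy cells, against 9.53 and 9.79 log2 in WT non-irradiated cells, a difference of -0.53 log2 (-1.05 to 0.00). The WT 2 Gy arrays are the same that were set against CD169-DTR 2 Gy cells, so low values there enter both comparisons.

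Other members were higher after 2 Gy in WT cells. Psme4 had 9.42 and 9.16 log2 in WT 2 Gy cells, against 8.58 and 8.96 log2 in WT non-irradiated cells, a difference of 0.52 log2, or 1.43-fold (95% interval 1.03 to 2.00; limma adjusted p = 0.610). In CD169-DTR cells Psme4 had 9.09 and 8.72 log2 after 2 Gy, against 8.60 and 8.81 log2 after sham, which overlap, and the average over genotypes was 0.36 log2 (0.02 to 0.70). Psmc5, an ATPase, was 0.34 log2 higher in WT cells (-0.10 to 0.77) and 0.26 log2 in CD169-DTR cells (-0.18 to 0.69).

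**Figure D4:**
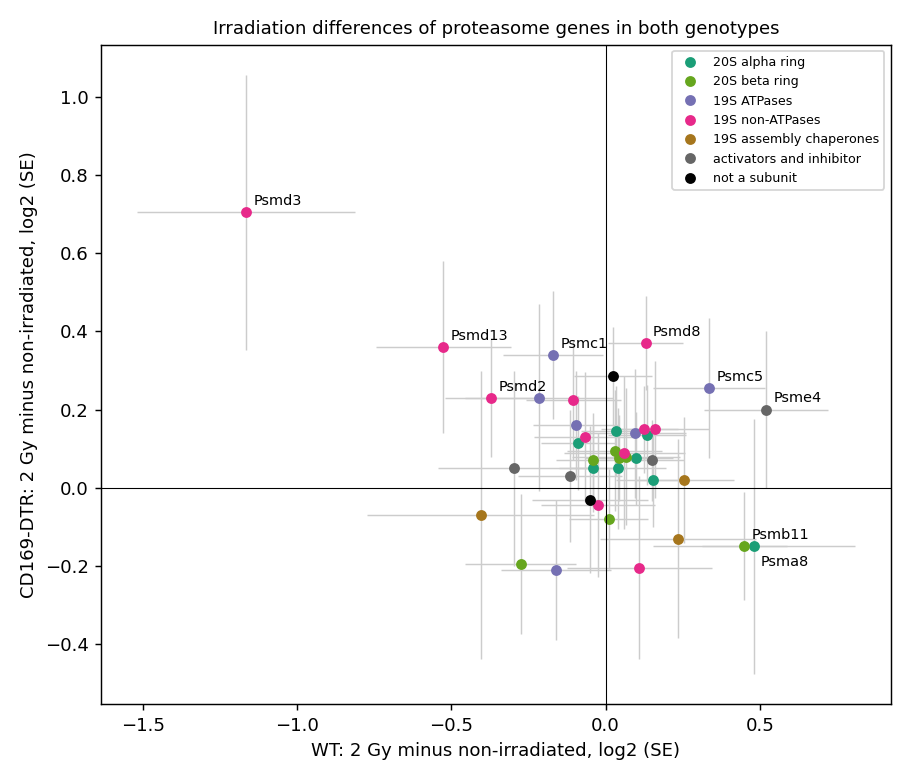
Irradiation difference (2 Gy minus non-irradiated, log2, with SE bars) of each member in CD169-DTR cells (vertical axis) against that in WT cells (horizontal axis), coloured by role. Psmd3, Psmd13, Psmd2 and Psmc1 lie in the upper left, higher after 2 Gy in CD169-DTR cells and lower in WT cells, while Psmd8, Psmc5 and Psme4 lie in the upper right.

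Averaged over genotypes, 29 of the 41 members were higher after 2 Gy, against 63.7% of all probe sets, with a median of 0.06 log2. Among the 7573 brightest probe sets 48.0% were higher, with a median of -0.008 log2. The direction of the members depends on the scaling and on 1 array. After median centring 18 members were higher with a median of -0.008 log2. Without WT 2 Gy replicate 2, 19 members were higher with a median of -0.002 log2. No member passed (0.0099% of all probe sets did; smallest limma adjusted p of a member 0.490). At an unadjusted p under 0.05 by limma, 2 members were higher and 0 lower, against 5.24% and 3.98%. For 0 members did all 4 irradiated arrays lie above, and for 0 below, all 4 sham arrays, against 3.76% and 1.74% of all probe sets. The intervals of 36 members lay within a 1.5-fold change, against 72.2% of all probe sets. The catalytic subunits Psmb6 and Psmb7 differed by 0.02 log2 (95% interval -0.19 to 0.22) and -0.24 log2 (-0.54 to 0.07). Psmd4 differed by 0.03 log2 (-0.25 to 0.31) and Psmd14 by 0.08 log2 (-0.26 to 0.41).

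Whether irradiation acted differently in the genotypes was tested as an interaction, the irradiation difference in CD169-DTR cells minus that in WT cells. The median of the members was 0.03 log2, with 26 above 0 and 14 below, against 41.8% of all probe sets above 0 and a median of -0.05 log2 over all of them. Among the 7573 brightest probe sets 51.0% were above 0, with a median of 0.01 log2. After median centring the median of the members was 0.13 log2, with 34 above 0. The adjusted test passed 0 of 41 members and 0% of all probe sets, and at an unadjusted p under 0.05 by limma 3 members were above and 1 below 0, against 2.4% and 2.78%. The 1 below 0 was Psmb11, which lay below the 25th percentile of every array. In the 19S particle 12 of 17 were above 0 with a median of 0.20 log2, and in the core 9 of 13 with a median of 0.03 log2. The neutrophil and granulocyte-monocyte progenitor markers had 0 of 10 above 0, with a median of -1.81 log2, and the mast cell and basophil markers 5 of 5, with a median of 1.58 log2. Their part in the interaction of the members was not tested.

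Psmd3 had the largest interaction of the members. It had 10.69 and 10.95 log2 in CD169-DTR 2 Gy cells, against 9.57 and 10.66 log2 in CD169-DTR non-irradiated cells, next to the WT values given above. The interaction was 1.87 ± 0.50 log2 (SE; 95% interval 0.68 to 3.06; limma adjusted p = 0.875). CD169-DTR non-irradiated replicate 1, at 9.57, lies near the WT 2 Gy arrays, and its partner, at 10.66, near the WT non-irradiated arrays. Without replicate 1 the irradiation difference of Psmd3 in CD169-DTR cells was 0.16 log2 and the interaction 1.33 log2, and without replicate 2 they were 1.25 and 2.42 log2. Psmd13 and Psmd2 had the same pattern, with interactions of 0.89 log2 (0.14 to 1.63) and 0.60 log2 (0.09 to 1.11). Without CD169-DTR non-irradiated replicate 1 these were 0.58 and 0.43 log2. The limma adjusted p was 0.928 for Psmd13 and 0.933 for Psmd2.

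**Figure D5:**
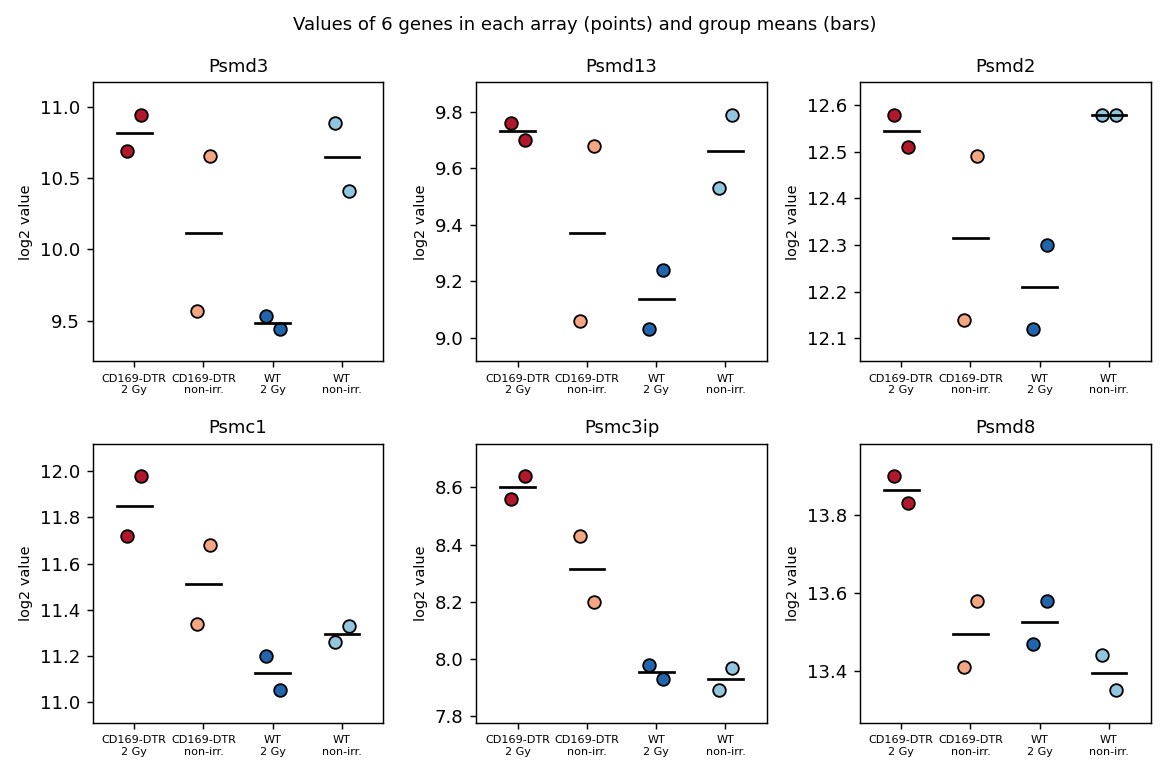
Log2 values of Psmd3, Psmd13, Psmd2, Psmc1, Psmc3ip and Psmd8 on each array (points, 2 per group) with the group means (bars), each panel on its own scale. The CD169-DTR non-irradiated arrays of Psmd3, Psmd13 and Psmd2 lie far apart, and all 4 CD169-DTR arrays of Psmc3ip lie above the 4 WT arrays.

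Genes that work with these subunits were read from lists of the pathway. The 3 immunoproteasome subunits Psmb8, Psmb9 and Psmb10, which replace catalytic subunits in blood cells, were all higher in CD169-DTR than in WT cells after 2 Gy (median 0.18 log2) and without irradiation (median 0.15 log2), and all lower after 2 Gy than after sham in both genotypes. Psmb10 had 14.10 and 14.01 log2 in CD169-DTR 2 Gy cells, 14.18 and 14.16 in CD169-DTR non-irradiated cells, 13.77 and 13.81 in WT 2 Gy cells, and 13.93 and 14.11 in WT non-irradiated cells. Its genotype difference averaged 0.21 log2 (95% interval 0.01 to 0.41; limma adjusted p = 0.787). No gene of any list named here passed the adjusted test in these comparisons.

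Of the 6 chaperones that build the 20S core, all 6 were higher in CD169-DTR than in WT cells after 2 Gy, with a median of 0.23 log2, and 5 of 6 without irradiation. Psmg3 differed by 0.35 log2 on average (0.06 to 0.63; limma adjusted p = 0.776) and Psmg1 by 0.25 log2 (0.00 to 0.50). Of the proteasome-bound factors 11 of 13 were measured, and 8 of the 11 were higher after 2 Gy in CD169-DTR than in WT cells, with a median of 0.12 log2. Uchl5, a deubiquitinase that docks on the 19S particle, differed by 0.54 log2 after 2 Gy (0.22 to 0.86; limma adjusted p = 0.619). Zfand5, a zinc finger protein that stimulates the proteasome, differed by -0.37 log2 (-0.65 to -0.09; limma adjusted p = 0.636).

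The regulators of subunit transcription (9 of 10 measured) were mixed: 7 of the 9 were higher in CD169-DTR than in WT cells after 2 Gy and 5 of the 9 without irradiation. Nfe2l1 had means of 11.22 log2 in CD169-DTR 2 Gy cells and 11.21 log2 in WT 2 Gy cells, a difference of 0.02 log2 (95% interval -0.42 to 0.45), and in WT cells it differed by -0.39 log2 after 2 Gy (-0.82 to 0.05). Syvn1, a ubiquitin ligase that helps to degrade Nrf1, differed by 0.38 log2 between CD169-DTR and WT cells on average (0.15 to 0.61; limma adjusted p = 0.720). Nfyc, a subunit of the factor that binds the CCAAT box, differed by -0.55 log2 after 2 Gy in WT cells (limma adjusted p = 0.544). Of the 6 cofactors of the segregase p97, which pulls ubiquitin-tagged proteins apart before they reach the proteasome, Nsfl1c and Nploc4 differed by -0.60 and -0.55 log2 after 2 Gy in WT cells (limma adjusted p = 0.514 and 0.617). Of the ubiquitin genes and activating enzymes only Uba6 was measured, with differences of -0.13 to -0.06 log2 in the 4 pairwise comparisons.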

How the data were processed

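The deposited table gives log2 values, 1 for each probe set on each array. Per the submitters' processing notes they were made with RMA, a robust averaging of probes over arrays. The table does not state the log base, and log2 is taken because RMA uses it. The values were used as deposited, without further scaling or filter. Names came from the platform's probe annotation, updated to RefSeq symbols: 30294 of 40161 probe sets carried 1 symbol and were tested. The 4 group means were fitted in 1 model with limma 3.58.1 (lmFit, eBayes) in R 4.3.3, with 4 residual and 2.59 prior degrees of freedom. Tests were two-sided, with Benjamini-Hochberg adjustment over all tested probe sets within each of 7 comparisons and a threshold of 0.05. Intervals are 95% limma intervals. The script was tested on simulated data. With 2 arrays a group, precision is limited by the number of arrays. The members and the pathway and marker lists were chosen with earlier results of these data known. Named members are the subunits with fixed roles plus, per comparison, the 3 with the smallest p and the 2 with the largest difference in each direction; a choice of them is given in the text. The alternatives were a block for the replicate number, array weights, median centring or cyclic loess, an intensity trend, all probe sets or none of the dim ones, a fit of the compared groups alone, subunits only and each array left out. Leaving out both 2 Gy arrays that stand apart, and leaving out Psmc3ip and Psme3ip1, were added after seeing the data. Promoter motifs were counted with Python 3.11.15. The array's genome build is not given in the sources used here.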

Additional observations from a re-analysis of the deposited data

Results flagged for a closer look

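The 5 members are given here because both arrays of one genotype moved one way with irradiation and both arrays of the other genotype the opposite way. The share of all probe sets that meet this rule was not computed. Within a genotype, 31.4% of all probe sets lay wholly above and 13.2% wholly below sham in WT cells. In CD169-DTR cells these shares were 17.8% and 13.4%. The gaps in CD169-DTR cells were narrow: the lowest 2 Gy and highest sham arrays were 10.69 and 10.66 log2 for Psmd3, 9.70 and 9.68 for Psmd13, and 12.51 and 12.49 for Psmd2. The interaction, the irradiation difference in CD169-DTR cells minus that in WT cells, was 1.87 log2 for Psmd3, 0.89 log2 for Psmd13, 0.60 log2 for Psmd2 and 0.51 log2 for Psmc1. It was -0.60 log2 for Psmb11, which lay below the 25th percentile of every array. None passed the adjusted limma test of the difference, with adjusted p of 0.875, 0.928, 0.933, 0.933 and 0.913 in that order. The gap test for a single outlying sample needs at least 4 samples in a group and was not run.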

How the results depend on the processing

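The number of members past the adjusted threshold was 0 in all 7 comparisons under every alternative run. Median centring moved the median difference of the members for irradiation in WT to -0.085 log2 and that of the interaction to 0.125 log2. With each array left out in turn, the median ranged from -0.06 (without WT 2 Gy replicate 2) to 0.085 log2 (without WT 2 Gy replicate 1) for irradiation in WT, from 0.055 to 0.155 log2 (without CD169-DTR non-irradiated replicate 1 and replicate 2) for irradiation in CD169-DTR, from 0.14 (without CD169-DTR 2 Gy replicate 1) to 0.25 log2 (without WT 2 Gy replicate 2) for CD169-DTR against WT after 2 Gy, and from 0 (without CD169-DTR non-irradiated replicate 1) to 0.155 log2 (without WT 2 Gy replicate 2) for the interaction. For CD169-DTR against WT without irradiation the median was 0.16 and 0.065 log2 (without CD169-DTR non-irradiated replicate 1 and replicate 2) and 0.054 log2 after cyclic loess. Averaged over irradiation it was 0.084 log2 after cyclic loess. Of the values of named members under the alternatives, 1866 moved by less than the spread between replicates, 116 by more. With the replicate block the median after 2 Gy was 0.155 log2 and the count of members past the threshold was 0. The deviations of same-numbered arrays correlated between -0.088 and 0.159 over the 6 pairs of groups, and the numbers were not used as pairs: the labels do not say whether a number marks a shared experiment. Taking the mean of a gene's probe sets was not run, because each member has 1. With 2 arrays a group and intervals often wider than 1.5-fold for single subunits, smaller changes of single members were not detectable.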
